A study of Mus musculus with 9 samples.

Results

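The cluster of miR-221 and miR-222 was examined in small RNA libraries of mouse liver across fibrosis and its spontaneous recovery. Its members were chosen by name, as the rows that start with mmu-miR-221- or mmu-miR-222-, and were 4 of the 1140 rows of the table: mmu-miR-221-3p, mmu-miR-221-5p, mmu-miR-222-3p and mmu-miR-222-5p. The livers came from male C57BL/6 mice that were 8 weeks old at the start. Over 8 weeks, the control group (n = 3) was injected intraperitoneally with normal saline and the TAA group (n = 3) with thioacetamide, a hepatotoxin that causes fibrosis. The recovery group (n = 3) had the same 8-week course of thioacetamide, followed by 8 weeks with no injections. The labels named no transgene or deletion in any group. The authors killed control and TAA mice a few days after the final injection. Effects of the last dose and of the whole 8-week course therefore cannot be told apart in the TAA group. The recovery mice were killed 8 weeks after the others, so recovery and elapsed time cannot be told apart.

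A microRNA (miRNA) is cut from a hairpin precursor, whose 5p and 3p arms can each be loaded into Argonaute and pair with target mRNAs through the seed, the stretch near the 5′ end. The hairpins of miR-221 and miR-222 lie in tandem on the X chromosome and are transcribed together, and their 3p arms share a seed. Both 3p arms are known to repress the cell cycle inhibitor Cdkn1b (p27), and they have been described as raised in activated hepatic stellate cells, the cells that deposit collagen in the injured liver.

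The mature sequences are shown because they separate the 2 arms that can share targets from the 1 that cannot do so through its seed. They were taken from RefSeq (build GRCm38.p6), which gave a sequence for 3 of the 4 members and for 935 of all 1140 rows. Capitals mark the seed, bases 2 to 8 from the 5′ end.
mmu-miR-221-3p: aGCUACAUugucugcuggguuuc
mmu-miR-222-3p: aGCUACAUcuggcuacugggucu
mmu-miR-221-5p: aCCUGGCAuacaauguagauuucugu

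The 3p arms were each 23 bases long and had their first 8 bases in common. Beyond these they diverged, and 11 of the 23 positions were identical without gaps (47.8%). The 5p arm of miR-221 was 26 bases long with another seed, which no other mature entry of the RefSeq table shared. No further row of the table with a RefSeq sequence carried the seed of the 3p arms.

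The hairpins are shown with the mature arms that RefSeq gives in capitals, because the measurements below compare arms of 1 precursor and precursors of 1 cluster.
Mir221: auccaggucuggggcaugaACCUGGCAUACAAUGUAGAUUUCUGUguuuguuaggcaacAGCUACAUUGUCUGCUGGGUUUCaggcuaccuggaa
Mir222: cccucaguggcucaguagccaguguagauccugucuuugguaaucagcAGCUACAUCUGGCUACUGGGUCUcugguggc

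Mir221 (chrX:19146294-19146388) and Mir222 (chrX:19146893-19146971) lie on the minus strand of GRCm38.p6, with 504 bases between them. Mature miR-221-3p was at chrX:19146307-19146329, miR-221-5p at chrX:19146344-19146369 and miR-222-3p at chrX:19146901-19146923. In the GENCODE M21 annotation the pair is intergenic. The nearest other gene was Gm14636, a processed transcript on the same strand at chrX:19156981-19167241, whose nearer end is 10010 bases from the pair.

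Each library held between 9071847 and 12983378 miRNA counts. The levels are given on 2 scales. The deposited TPM is the count per 1000000 counts of the library. The CPM given here is the same quantity scaled by TMM factors, which set the bulk of the miRNAs level between libraries. The factors ranged from 0.739 to 0.792 in control, from 1.43 to 1.63 in TAA and from 0.766 to 0.887 in recovery libraries, so the scales part between TAA and the other groups. The median log2 fold change of all rows tested was 0.11 under TMM and 1.23 under library totals for TAA vs control, and −0.12 and −0.98 for recovery vs TAA.

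miR-221-3p was the most abundant member in every library. It had 1686, 1143 and 1305 counts in control replicates 1 to 3, which are 130, 111 and 131 TPM. In TAA replicates 1 to 3 it had 4649, 3052 and 3096 counts, or 411, 336 and 338 TPM. Recovery replicates had 2165, 2161 and 1805 counts, or 177, 176 and 145 TPM. On the TPM scale every TAA liver lay above every recovery liver, and every recovery liver above every control liver. How many of all rows separated in such ways was not counted, here or for the other members. With libraries scaled by totals, 71.9% of all rows passed as higher in TAA than in control (FDR below 0.05). On that scaling 60% passed as lower in recovery than in TAA, and 14.8% as higher in recovery than in control. The means were 124 ± 11.1 in control, 362 ± 42.5 in TAA and 166 ± 18.4 TPM in recovery (SD, n = 3). On the TMM scale the means were 163 ± 11.5, 234 ± 46.1 and 198 ± 33 CPM. TAA and control livers still did not overlap on that scale, while recovery overlapped with both.

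miR-222-3p, the seed partner from the neighbouring hairpin, had 393, 309 and 359 counts in control livers (30.3, 30.1 and 36.1 TPM). TAA livers had 1827, 851 and 822 counts (161, 93.8 and 89.7 TPM), and recovery livers had 425, 518 and 462 counts (34.8, 42.2 and 37.1 TPM). TAA replicate 1 stood far above the other TAA livers, and all 3 TAA livers lay above every control and recovery liver. Control and recovery overlapped. The means on the TMM scale were 42.3 ± 4.96, 75.1 ± 32.6 and 45.1 ± 2.64 CPM in control, TAA and recovery (SD, n = 3), with TAA again apart from both other groups.

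miR-221-5p, the opposite arm of the miR-221 hairpin, had 475, 421 and 497 counts in control (36.6, 41.0 and 49.95 TPM). It had 944, 480 and 443 counts in TAA (83.4, 52.9 and 48.3 TPM) and 377, 640 and 544 counts in recovery (30.9, 52.2 and 43.6 TPM). The groups overlapped in every comparison on either scale, and TAA replicate 1 was the highest library in TPM. The TMM-scaled means were 56.0 ± 9.99 CPM in control, 40.1 ± 15.7 CPM in TAA and 49.6 ± 9.25 CPM in recovery (SD, n = 3).

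miR-222-5p was the scarcest member. It had 28, 31 and 43 counts in control, 94, 63 and 87 in TAA, and 44, 50 and 54 in recovery libraries. The TPM values were 2.16, 3.02 and 4.32, then 8.30, 6.94 and 9.49, then 3.60, 4.07 and 4.33. Counting error alone was wide at this depth, as 28 counts give a 95% Wilson interval of 1.49 to 3.12 per 1000000. TAA livers lay above all others in TPM, and all 3 groups overlapped on the TMM scale, at 4.18 ± 1.5, 5.30 ± 0.905 and 4.75 ± 0.181 CPM (SD, n = 3).

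**Figure D1:**
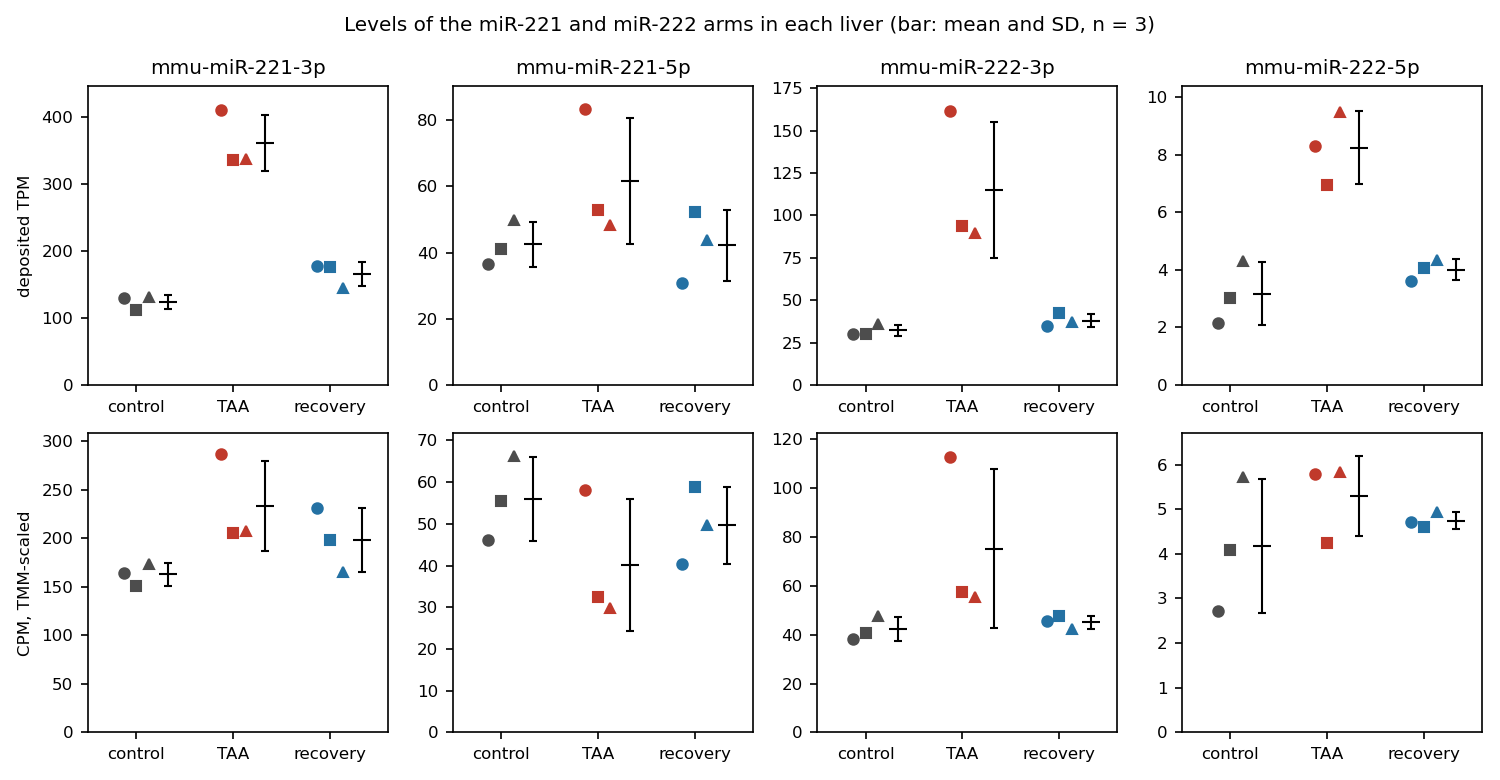
Levels of the 4 members in each liver, as deposited TPM (top row) and TMM-scaled CPM (bottom row), on linear axes from 0. Circles, squares and triangles are replicates 1, 2 and 3, and bars give the mean and SD (n = 3). miR-221-3p and miR-222-3p in TAA lay above control on both scales, with TAA replicate 1 highest, while miR-221-5p overlapped between groups on both.

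The order of the levels also differed between groups. miR-221-3p came first and miR-222-5p last in every library. In all 3 control livers miR-221-5p was above miR-222-3p, and in all 3 TAA livers miR-222-3p was above miR-221-5p. Recovery was mixed, with miR-222-3p ahead in replicate 1 only. In the ranking of all detected miRNAs of a library, miR-221-3p was at place 77 to 81 in control, 63 to 72 in TAA and 68 to 83 in recovery. Ligation favours some small RNA ends over others, so the order between miRNAs is one of reads and need not be one of molecules.

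TAA vs control asks how the cluster differed after 8 weeks of thioacetamide, a few days after the last dose. Under TMM, both 3p arms rose. miR-221-3p had a log2 fold change of 0.43 (SE 0.15, 95% interval 0.09 to 0.77), a 1.34-fold difference with an FDR of 0.0384 in the edgeR quasi-likelihood test with Benjamini-Hochberg adjustment over 420 rows. miR-222-3p had a log2 fold change of 0.73 (SE 0.26, interval 0.11 to 1.34), or 1.66-fold, with an FDR of 0.0464 in the same test. These 2 of 4 members passed as higher, where 31.9% of all rows tested did so. miR-221-5p had −0.58 (interval −1.18 to 0.02, FDR 0.0903) and miR-222-5p had 0.27 (interval −0.45 to 0.98, FDR 0.477). No member was a differentially expressed miRNA (DEM, at least 2-fold changed with an FDR below 0.05), against 41.7% of all rows.

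Both calls were close to the threshold. With the size factors of DESeq2 in the edgeR test, miR-221-3p had a log2 fold change of 0.38 (FDR 0.0577) and miR-222-3p had 0.68 (FDR 0.0612). Each call was lost when any 1 control liver or TAA replicate 1 was left out, with log2 fold changes then of 0.31 to 0.46 for miR-221-3p (FDR 0.0675 to 0.149) and 0.38 to 0.80 for miR-222-3p (FDR 0.0628 to 0.120). The lowest value of each came without TAA replicate 1, which moved miR-222-3p from 0.73 to 0.38. Without that liver miR-221-5p was lower in TAA, at −0.88 (SE 0.18, FDR 0.00605).

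With libraries scaled by their totals, as the TPM values are, the changes were far larger. miR-221-3p then had a log2 fold change of 1.54 (FDR 0.000114), miR-222-3p 1.84 (FDR 0.000499) and miR-222-5p 1.39 (FDR 0.00461). miR-221-5p had 0.53 (FDR 0.0804), the opposite sign to its TMM value. With 71.9% of all rows higher in TAA on this scaling, 3 of 4 members being higher was near the background. A change of library scaling shifts nearly every row alike, so values set against the median of all rows can hardly depend on it. miR-221-3p lay 0.31 above that median under both, miR-222-3p 0.62 above it under TMM and 0.61 under library totals, and miR-221-5p 0.69 below it under both. By fold change, 59.3% of the rows tested under TMM lay below miR-221-3p, 67.4% below miR-222-3p, 54% below miR-222-5p and 25.5% below miR-221-5p. The 3p arms were thus inside the bulk of the miRNAs of this comparison, a place that the scaling could hardly change. It did depend on the rows tested. With no filter on low counts, miR-221-3p lay 0.15 below the median of all rows and miR-222-3p 0.15 above it. With only rows of a mean of at least 10 CPM, they lay 0.44 and 0.73 above the median.

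**Figure D2:**
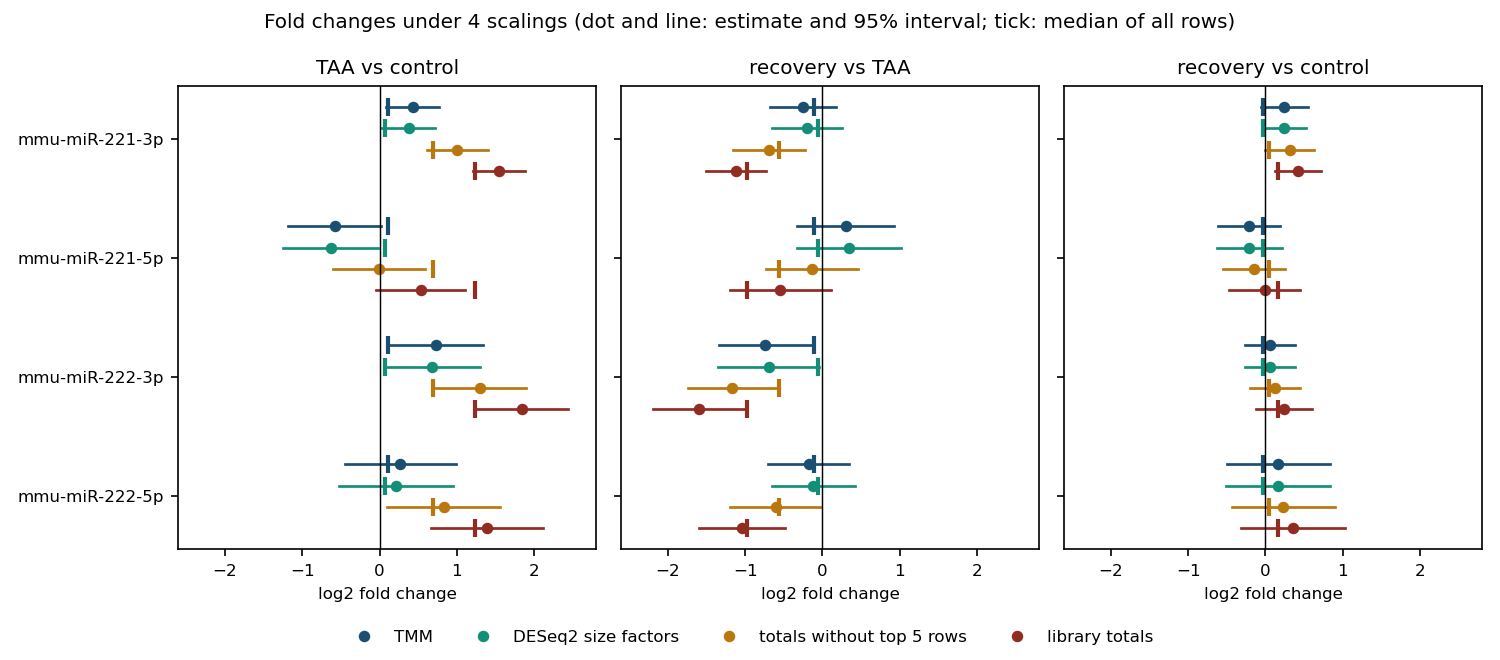
Log2 fold changes of the members in the 3 comparisons under 4 ways of scaling the libraries (colours). Dots and lines are edgeR estimates with 95% intervals, and ticks mark the median of all rows tested under the same scaling. The dots move with the ticks: from TMM to library totals miR-221-3p in TAA vs control goes from 0.43 to 1.54 and the median from 0.11 to 1.23.

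Recovery vs TAA asks whether the cluster changed after withdrawal of the toxin. Under TMM no member passed. miR-222-3p came nearest, with a log2 fold change of −0.74 (SE 0.26, interval −1.34 to −0.14, FDR 0.0554 by edgeR). miR-221-3p had −0.25 (interval −0.68 to 0.18, FDR 0.318; −0.043 without TAA replicate 1 and −0.096 without recovery replicate 3), miR-221-5p 0.30 (interval −0.32 to 0.93, FDR 0.413) and miR-222-5p −0.18 (interval −0.70 to 0.35, FDR 0.572). Of all rows, 20.7% were lower in recovery and 24.8% were DEMs in either direction. The value of miR-222-3p rested in part on TAA replicate 1, since it was −0.30 without that liver. It passed without TAA replicate 2 (−0.83, FDR 0.0474) or TAA replicate 3 (−0.91, FDR 0.0433). Without TAA replicate 1, miR-221-5p was higher in recovery (0.70, FDR 0.0271).

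Under library totals, 3 members were lower in recovery than in TAA, where 60% of all rows were. The log2 fold changes were −1.12 for miR-221-3p (FDR 0.00106), −1.60 for miR-222-3p (FDR 0.00145) and −1.04 for miR-222-5p (FDR 0.00667). miR-221-5p had −0.54 (FDR 0.121). Against the median of all rows, miR-222-3p was 0.62 lower under either scaling, and miR-221-3p was 0.13 lower under TMM and 0.15 lower under library totals.

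Recovery vs control asks what was left after 8 weeks without TAA. No member passed under either scaling. Under TMM the log2 fold changes were 0.25 for miR-221-3p (interval −0.06 to 0.55, FDR 0.339), 0.06 for miR-222-3p (interval −0.26 to 0.38, FDR 0.878), −0.21 for miR-221-5p (interval −0.61 to 0.19, FDR 0.606) and 0.17 for miR-222-5p (interval −0.50 to 0.84, FDR 0.834). In this comparison 12% of all rows were higher under TMM and 14.8% under library totals, and 11.3% were DEMs. Under library totals miR-221-3p had 0.42 (interval 0.12 to 0.72, FDR 0.0627), the largest of the members, and its 3 recovery livers were above the 3 control livers in TPM. The comparisons share groups, so their values are not independent of each other.

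Ratios of members within a library do not depend on how libraries are scaled. The 5p arm of miR-221 amounted to 28.2, 36.8 and 38.1% of the 3p arm in control livers, to 20.3, 15.7 and 14.3% in TAA livers, and to 17.4, 29.6 and 30.1% in recovery livers. Every TAA liver was below every control liver, and recovery replicate 1 lay within the TAA range while recovery replicates 2 and 3 lay in that of control. The log2 ratio was 1.04 lower in TAA than in control (SE 0.20), a ratio 0.487 times that of control, with p = 0.1 in an exact two-sided permutation test. This p is the smallest that 3 against 3 livers allow. Recovery differed from TAA by 0.59 (exact permutation p = 0.2) and from control by −0.45 (exact permutation p = 0.3), which became −0.19 without recovery replicate 1.

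The reads of miR-222-3p over those of miR-221-5p were 0.827, 0.734 and 0.722 in control livers, 1.94, 1.77 and 1.86 in TAA livers and 1.13, 0.809 and 0.849 in recovery livers. TAA overlapped with neither other group, and TAA replicate 1 was in step with the other TAA livers here. The log2 ratio was 1.29 higher in TAA than in control (SE 0.07) and 1.01 lower in recovery than in TAA (SE 0.15), each with the smallest exact permutation p of 0.1. Between recovery and control it differed by 0.27 (SE 0.16, exact permutation p = 0.2). This ratio was chosen after the levels had been seen.

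The 3p arms kept a closer proportion. miR-222-3p amounted to 23.3, 27.0 and 27.5% of miR-221-3p in control, to 39.3, 27.9 and 26.6% in TAA and to 19.6, 24.0 and 25.6% in recovery livers. On the high side only TAA replicate 1 stood out, as the other 8 libraries were at 27.9% or lower. Recovery replicate 1 was the lowest, at 19.6%, where all others were at 23.3% or higher. The log2 ratio differed by 0.25 between TAA and control (SE 0.19, exact permutation p = 0.4), and by 0.07 without TAA replicate 1. Recovery was 0.42 below TAA (SE 0.21, exact permutation p = 0.1), without overlap, and 0.25 below it without TAA replicate 1. The miR-222 arms, with few 5p reads, differed by −0.37 between TAA and control (SE 0.37, exact permutation p = 0.5). Over the 12 ratio tests the lowest Benjamini-Hochberg adjusted value of the exact permutation p was 0.3.

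**Figure D3:**
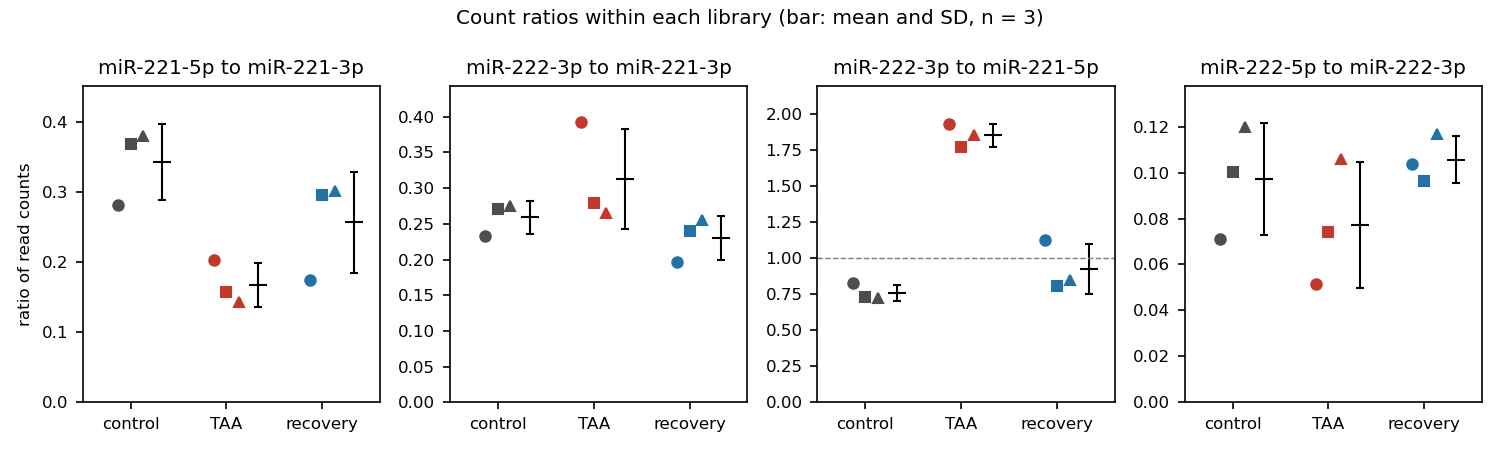
Ratios of read counts between members within each library. Circles, squares and triangles are replicates 1, 2 and 3, bars give the mean and SD (n = 3), and the dashed line marks equal counts. The miR-222-3p to miR-221-5p ratio lay between 1.77 and 1.94 in TAA livers and between 0.722 and 0.827 in control livers.

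The tissue is whole liver, so more cells of a type and more RNA per cell cannot be told apart. Under TMM, markers of some cell types were higher in TAA than in control, as the 3p arms were, and markers of others were lower. Of all rows, 31.9% were higher and 26.4% lower in that comparison. The summed level of 5 biliary epithelial miRNAs (the miR-200 family) ranged from 430 to 577 TPM in control, 5441 to 7927 in TAA and 949.9 to 1255 in recovery, and all 5 were higher in TAA than in control under TMM. Of 6 mesenchymal markers 4 were higher and none was lower, with sums of 19245 to 24648, 29485 to 64244 and 16763 to 31367 TPM in control, TAA and recovery, of which miR-143-3p was the bulk. On the TMM scale the mesenchymal sums overlapped, at 25486 to 31116 CPM in control and 18054 to 39538 CPM in TAA. Of 5 leukocyte markers 4 were higher, with sums of 145 to 160 TPM in control, 435 to 518 in TAA and 112 to 194 in recovery. All 4 hepatocyte markers were lower under TMM, where 26.4% of all rows were, and their sum went from 273385 to 298714 TPM in control to 163290 to 176002 in TAA. Both endothelial markers were lower under TMM and higher under library totals, where 71.9% of all rows were higher. Of 3 erythroid markers 2 were lower under TMM and none passed under library totals. No marker of any list was at 0 in a whole group. TAA replicate 1, the highest in miR-222-3p, had the highest biliary sum (7927 TPM) of the TAA livers, and it was also the highest of them on the TMM scale (5534 CPM). The biliary markers were split, as mmu-miR-200a-3p, mmu-miR-200b-3p and mmu-miR-429-3p were highest in that TAA liver on both scales. mmu-miR-200c-3p (57.8 CPM) and mmu-miR-141-3p (6.48 CPM) were lowest in it among the TAA livers, and highest in TAA replicate 3 (109 and 12.9 CPM). The mesenchymal and leukocyte sums were highest in TAA replicate 3 on both scales. Among single mesenchymal markers on the TMM scale, mmu-miR-145a-5p, mmu-miR-199a-5p, mmu-miR-199b-5p and mmu-miR-214-3p were highest in TAA replicate 1. mmu-miR-143-3p and mmu-miR-199a-3p were highest in TAA replicate 3. The leukocyte markers were split on that scale too. Of these, mmu-miR-142a-3p and mmu-miR-155-5p were highest in TAA replicate 1, and mmu-miR-142a-5p, mmu-miR-150-5p and mmu-miR-223-3p in TAA replicate 3. The part of these cells in the levels of the cluster was not tested.

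The cluster was set beside other miRNAs linked to stellate cell activation. These lists were chosen with earlier results of these data known, so their counts and medians are a description and not an independent yardstick. Of 9 miRNAs described as raised in activated stellate cells or fibrosis, 7 were higher and 2 lower in TAA than in control under TMM, with a median log2 fold change of 1.44, where that of all rows was 0.11 and 31.9% of all rows were higher. The 5 DEMs were mmu-miR-34a-5p, a target of p53 (2.66), mmu-miR-199b-5p (2.6), mmu-miR-214-3p (2.0), mmu-miR-199a-3p (1.66) and mmu-miR-199a-5p (1.44). A miR-199a hairpin, though not every one, and the miR-214 hairpin are carried by Dnm3os, a transcript of mesenchymal cells. These miR-199 and miR-214 rows are the same rows as the mesenchymal markers counted as higher above. mmu-miR-31-5p (0.88) and mmu-miR-27a-3p (0.61) were also higher. The 2 that were lower under TMM were mmu-miR-21a-5p (−0.36), which is known to be induced in many injured tissues, and mmu-miR-27b-3p (−0.25). Under library totals all 9 were higher, as were 71.9% of all rows. Set against the median of all rows, mmu-miR-21a-5p stood at −0.47 under TMM and −0.46 under library totals, and mmu-miR-27b-3p at −0.37 and −0.36. Both 3p arms of the cluster lay below the median of this list.

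In recovery vs TAA under TMM, 20.7% of all rows were lower and 18.4% higher. Of the 9 miRNAs, 5 were lower and none was higher, with a median of −1.23 against −0.12 for all rows. They were the 5 DEMs of TAA vs control, from mmu-miR-34a-5p (−2.52) to mmu-miR-199a-3p (−1.23). In recovery vs control mmu-miR-31-5p (0.72, FDR 0.0270 by edgeR) and mmu-miR-199a-3p (0.50, FDR 0.0147) were still higher, where 12% of all rows were.

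Of 13 miRNAs described as restraining stellate cells or collagen, 7 were lower and 2 higher in TAA than in control under TMM, with a median log2 fold change of −0.56. The 5 DEMs were mmu-miR-29c-3p (−2.18) and mmu-miR-29b-3p (−1.24), whose family targets collagen mRNAs, mmu-miR-122-5p, the main hepatocyte miRNA (−1.96), mmu-miR-194-5p (−1.42) and mmu-miR-30a-5p (−1.22). mmu-miR-150-5p, a lymphocyte miRNA (0.74), and mmu-miR-15b-5p (0.77) were higher. mmu-miR-122-5p and mmu-miR-194-5p were also counted among the hepatocyte markers above, and mmu-miR-150-5p among the leukocyte markers. Of all rows 26.4% were lower in this comparison. Under library totals 7 of the 13 were higher and 2 lower, where 71.9% of all rows were higher and 5.24% lower. Against the median of all rows, the median of the list was 0.67 lower under both scalings. Its mmu-miR-133a-3p, a muscle miRNA, had 249 TPM in TAA replicate 3 and at most 1.08 TPM in every other library. In recovery vs TAA 6 of the 13 were higher and 2 lower under TMM, where 18.4% of all rows were higher and 20.7% lower. Under library totals 2 were higher and 5 lower, where 4.09% of all rows were higher and 60% lower. The median of the list was 0.51 above that of all rows under TMM and 0.53 above it under library totals. In recovery vs control none passed under either scaling. miR-221-5p, with a log2 fold change of −0.58, was close to the median of this list, whereas the 3p arms were not.

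**Figure D4:**
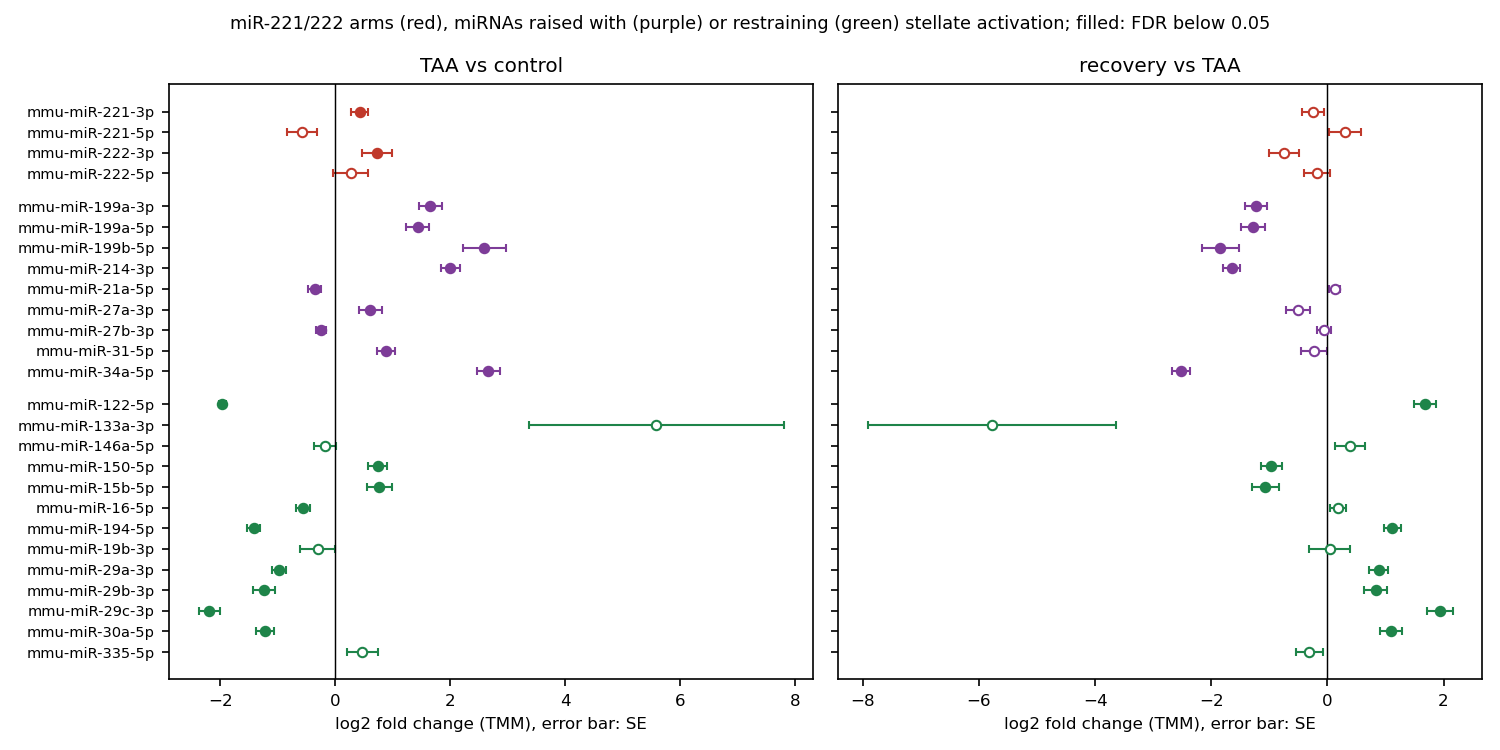
Log2 fold changes under TMM with their SE for the 4 arms (red), 9 miRNAs raised with stellate activation (purple) and 13 restraining it (green), in TAA vs control and recovery vs TAA. Filled points have an FDR below 0.05. The 3p arms, at 0.43 and 0.73 in TAA vs control, lie below the miR-199, miR-214 and miR-34a rows, and the wide bar is mmu-miR-133a-3p, which was high in 1 TAA library.

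The miRNAs with the most similar profiles were sought among 223 other rows with a mean of at least 10 CPM, by the root mean square difference of centred log2(CPM + 1) over the 9 libraries. For miR-221-3p the closest was mmu-miR-322-3p (0.185), followed by mmu-miR-93-5p (0.196), mmu-miR-151-5p (0.206), mmu-miR-181a-5p (0.207) and mmu-miR-195a-5p (0.208). For miR-222-3p it was mmu-miR-195a-5p (0.155), then mmu-let-7i-5p (0.208), mmu-miR-425-5p (0.210), mmu-miR-99b-5p (0.228) and mmu-miR-350-3p (0.239). mmu-miR-195a-5p was thus on both lists. The 3p arms differed from each other by 0.248, which would be place 19 for miR-221-3p and place 8 for miR-222-3p. miR-221-5p was much farther, at 0.495 from miR-221-3p of the same hairpin (place 115) and at 0.559 from miR-222-3p (place 114). These differences are a description over libraries that share the TMM scaling.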

How the data were processed

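Small RNA was measured in 9 livers, each from a different mouse, and the labels gave the groups. The authors made NEBNext small RNA libraries and mapped the reads with Bowtie (version 1.3.0 in the submitters' processing notes) to mm10 and miRBase. How multiply matching reads were counted is not given in the sources used here. The deposited read counts were whole numbers that the authors had not normalized. The deposited TPM was the count per 1000000 counts of the library, with no term for length, so a few abundant miRNAs shift every other value.

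Counts were tested with edgeR 4.0.16 (R 4.3.3), using filterByExpr (minimum count 10), TMM factors and the quasi-likelihood test, in each pair of groups separately. The p-values were adjusted over all rows tested, and FDR below 0.05 was the threshold. The code was tested on simulated data. Alternatives used DESeq2 1.42.0, limma 3.58.1 on log2(TPM + 1) and log2(TPM + 0.1), other scalings and filters, and each library left out. Log2 ratios of counts (0.5 added) were compared by exact permutation tests. The 95% intervals of fold changes come from the edgeR fit and include the spread between livers, while Wilson intervals cover counting error only.

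The text names the members, rows sharing their seed, the miRNAs of the stellate lists that are DEMs or are singled out, and the 5 rows most alike to each 3p arm. It also names the mesenchymal, biliary epithelial and leukocyte markers. The members and lists were chosen with earlier results of these data known. miR-222-5p and the ratios of miR-222-5p to miR-222-3p and of miR-222-3p to miR-221-5p were added after the table had been seen. The mRNA data were not used here.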

Additional observations from a re-analysis of the deposited data

How the results depend on the processing

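For TAA vs control, the log2 fold change of miR-221-3p no longer passed with DESeq2 size factors (0.38), the DESeq2 test (0.41), no filter on low counts (0.42), all 9 libraries in 1 fit (0.42) or the replicate block (0.42). miR-222-3p no longer passed with DESeq2 size factors (0.68). miR-221-5p turned to 0.53 under library totals, 0.49 with limma on log2(TPM + 1) and 0.50 on log2(TPM + 0.1), and passed without a filter (−0.58). miR-222-5p passed in these 3 settings (1.39, 1.17 and 1.40). For recovery vs TAA, under library totals, totals without the 5 most abundant rows, limma with 1 and limma with 0.1, miR-221-3p passed (−1.12, −0.69, −1.12 and −1.12), miR-222-3p passed (−1.60, −1.17, −1.52 and −1.54) and miR-221-5p turned (−0.54, −0.14, −0.52 and −0.53). miR-222-5p passed under library totals and both limma fits (−1.04, −0.88 and −1.02). miR-222-3p also passed without a filter (−0.76), with a mean of at least 10 CPM (−0.90) and with all 9 libraries (−0.71). Leaving out 1 library each, the log2 fold changes in TAA vs control ranged from 0.31 to 0.52 (miR-221-3p), −0.88 to −0.39 (miR-221-5p), 0.38 to 0.92 (miR-222-3p) and 0.031 to 0.54 (miR-222-5p). In recovery vs TAA they ranged from −0.31 to −0.043 (miR-221-3p), 0.13 to 0.70 (miR-221-5p), −0.91 to −0.30 (miR-222-3p) and −0.25 to −0.069 (miR-222-5p). In recovery vs control they ranged from 0.14 to 0.35 (miR-221-3p), −0.34 to −0.057 (miR-221-5p), −0.014 to 0.13 (miR-222-3p), −0.087 to 0.44 (miR-222-5p) and −0.062 to 0.31 (log2 ratio of miR-222-5p to miR-222-3p). With the filter at 10 CPM, which left out miR-222-5p, the DEM counts went from 175 to 85 (TAA vs control), 109 to 60 (recovery vs TAA) and 44 to 13 (recovery vs control), where fewer rows were tested. For recovery vs TAA they were 207 under library totals and 194 with limma on log2(TPM + 0.1). Where no construction is named, the cause was not tested.

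Same-numbered libraries correlated above 0.1 in 3 of 9 pairs (r −0.241 to 0.242), and differently numbered ones had r from −0.297 to 0.244. The numbers thus showed no sign of pairing the mice, though weak pairing or shared processing could go unseen with so few livers. The replicate block changed no call but that of miR-221-3p. With 3 livers a group, the exact tests of ratios cannot go below 0.1, and the low counts of miR-222-5p limit its precision.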
